A study of Mus musculus with 6 samples.

Results

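The genes described here carry the prolactin and growth hormone signal through JAK2 and STAT5: the receptors *Prlr* and *Ghr*, the kinase *Jak2*, the transcription factors *Stat5a*, *Stat5b* and *Stat3*, and the feedback inhibitors *Cish*, *Socs1*, *Socs2* and *Socs3*. They were taken by symbol from the count table, where all 10 were found among 24015 genes. RNA came from microdissected arcuate nucleus (ARC) of adult female mice, per the labels on a mixed background of CD-1, 129P2 and C57BL/6. The authors' methods name only CD-1 and 129P2 for this line. The 3 controls carried both floxed *Esr1* alleles without Cre (Esr1fl/fl), and the 3 mutants carried the same floxed alleles with Nkx2-1-Cre (Esr1fl/fl;Nkx2-1-Cre), in which the Nkx2-1 promoter drives Cre and estrogen receptor alpha (ERα) is lost throughout the medial basal hypothalamus rather than in a single ARC cell type. The labels name no treatment for either genotype, and reads were counted on exons of each gene.

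Prolactin from the pituitary reaches the ARC, where its receptor is found on tuberoinfundibular dopamine (TIDA) neurons and on kisspeptin neurons, and dopamine from the TIDA neurons in turn restrains prolactin release. The receptors for prolactin and growth hormone have no enzyme of their own. They bind JAK2, which phosphorylates STAT5, and STAT5 dimers then enter the nucleus and induce target genes, among them *Cish* and *Socs2*, whose proteins shut the receptor down again. STAT3 and *Socs3* form the parallel arm used by leptin and by cytokines of the interleukin-6 family.

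STAT dimers bind the palindrome TTCNNNGAA, where N is any base. Promoter sequences were available from RefSeq (GRCm38.p6, each with 250 bases before and 50 after a start site) for 9 of the 10 genes, in 14 windows, but not for *Socs2*. The palindrome, which reads the same on both strands, was present in 3 of these 14 windows and in 8.30% of all 32851 windows. *Cish* held 2 copies, which 0.457% of all windows did. *Socs3* held 1, and *Prlr* held 1 at 1 of its 3 annotated starts. The palindromic estrogen response element (GGTCA and TGACC separated by 3 bases) was in none of the 14 windows, against 0.070% of all windows. The 3 windows with a match are all shown, whatever the level of the gene. They are written 5′ to 3′ on the strand of the gene, with the palindrome in capitals, and the last base shown is 20 bases after the start for *Cish* and the base before the start for the other two.
Cish, chr9:107296409-107296678, plus strand: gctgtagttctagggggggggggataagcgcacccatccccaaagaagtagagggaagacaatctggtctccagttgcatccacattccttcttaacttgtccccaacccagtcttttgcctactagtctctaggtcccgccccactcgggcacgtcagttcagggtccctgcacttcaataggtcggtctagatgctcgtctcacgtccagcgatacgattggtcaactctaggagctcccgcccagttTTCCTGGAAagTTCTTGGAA
Socs3, chr11:117969367-117969616, minus strand: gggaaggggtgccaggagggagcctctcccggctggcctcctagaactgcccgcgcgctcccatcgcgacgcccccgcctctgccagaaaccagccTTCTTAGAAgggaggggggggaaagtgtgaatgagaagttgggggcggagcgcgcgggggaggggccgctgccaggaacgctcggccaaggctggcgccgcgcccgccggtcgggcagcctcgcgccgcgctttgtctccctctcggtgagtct
Prlr, chr15:10223656-10223905, plus strand: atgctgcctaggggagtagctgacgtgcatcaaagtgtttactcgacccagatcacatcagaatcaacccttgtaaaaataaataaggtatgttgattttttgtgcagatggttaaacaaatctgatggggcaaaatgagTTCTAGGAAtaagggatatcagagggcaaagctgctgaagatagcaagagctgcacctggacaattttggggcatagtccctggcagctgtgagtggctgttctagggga
The *Cish* matches began 1 and 12 bases after the start, with 2 bases between them. The match of *Socs3* began 154 bases before its start and that of *Prlr* 110 bases before. A match is a description of these letters and not evidence of binding.

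Libraries held between 11792440 and 17877137 counts on genes. Levels are given in CPM, the count per 1000000 counts of a library after its size was scaled by TMM, in which 3 counts correspond to between 0.175 and 0.248 CPM, a floor for counting error only. *Esr1*, the deleted gene, was at 64.5, 57.5 and 48.5 CPM in controls and at 11.8, 9.55 and 7.06 CPM in mutants, in the order of replicates 1, 2 and 3 used throughout (log2 fold change -2.59, SE 0.18, edgeR's quasi-likelihood test, adjusted *p* = 0.000884). Of 15236 genes tested, 18 had an adjusted p-value under 0.05 (0.118%), 9 of them higher and 9 lower in mutants. The ARC markers *Agrp*, *Npy* and *Pomc* were present in all libraries, with means of 33.2, 135 and 173 CPM in controls.

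Of the 10 genes, *Prlr* was below the range of the controls in every mutant and *Cish*, *Socs2* and *Socs3* were higher in every mutant, whereas the levels of *Ghr*, *Jak2*, *Stat5a*, *Stat5b* and *Stat3* overlapped between genotypes. *Socs1*, with 2 to 13 counts per library, did not pass the filter on low counts, so 9 genes were tested. None of the 9 passed the threshold of 0.05 on the adjusted p-value with edgeR's quasi-likelihood test (0 of 9, against 0.118% of all genes) or with limma voom (0.131% of all genes). Before adjustment, 3 of the 9 had a p-value under 0.05 (*Prlr*, *Cish* and *Socs2*), against 8.85% of all genes. The values of 4 of the 9 did not overlap between genotypes, against 15.8% of all genes, with 3 higher and 1 lower in mutants, against 7.88% of all genes in each direction. DESeq2 called *Prlr*, *Cish* and *Socs2* at an adjusted p-value under 0.05, where it called 1.26% of the genes to which it gave an adjusted p-value, 0.642% higher and 0.622% lower. The median log2 fold change of the 9 genes was 0.038, and that of all tested genes was 0.0036. With 3 females against 3, an exact permutation test of a single gene cannot give a two-sided *p* under 0.1.

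**Figure D1:**
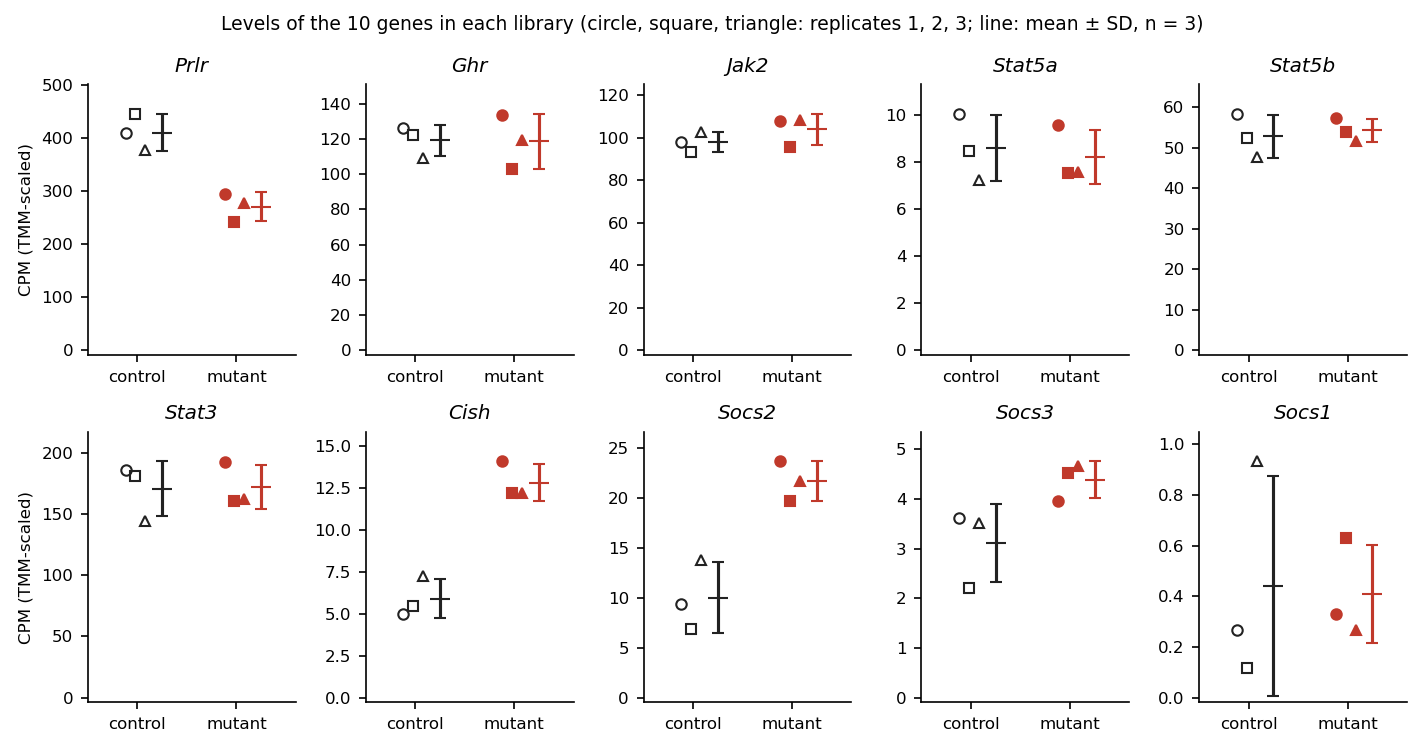
Level of each of the 10 genes in every library, in CPM on linear axes that start at 0, with controls as open black symbols and mutants as filled red symbols (circle, square and triangle for replicates 1, 2 and 3) and the mean ± SD of 3 libraries beside them. The red symbols lie below the black ones for *Prlr* and above them for *Cish*, *Socs2* and *Socs3*.

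*Prlr*, the receptor for prolactin, occupies 10106993 to 10303504 of chromosome 15, plus strand, in NCBIM37. It was at 408, 444 and 376 CPM in controls and at 294, 241 and 277 CPM in mutants. All 3 mutants were below all 3 controls, and the lowest control was 1.28 times the highest mutant. The means were 410 ± 34.2 CPM (SD, n = 3) and 271 ± 27.3 CPM (SD, n = 3), and the fitted level in mutants was 0.660 times that in controls. Its log2 fold change was -0.60, with a standard error of 0.099 and a 95% interval from -0.82 to -0.38. The adjusted p-value was 0.0606 with edgeR, 0.0598 with limma voom and 2.79e-05 with DESeq2, so the call depended on the test while the size did not. By unadjusted p-value *Prlr* ranked 30 among the tested genes. In bulk tissue, fewer cells with the receptor and less RNA in each of them cannot be told apart.

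The levels of genes that mark cells known to carry *Prlr* were read beside it. Summed over 6 TIDA markers, the level was 272 to 297 CPM in controls and 237 to 277 CPM in mutants, and these ranges overlapped. Of the 6, 2 are named after their values were seen. *Slc6a3*, the dopamine transporter, fell from 24.3 ± 4.19 to 5.08 ± 0.631 CPM (adjusted *p* = 0.000884, edgeR). *Nr4a2*, a transcription factor of dopamine neurons, had means of 28.5 ± 4.31 and 11.4 ± 3.22 CPM (adjusted *p* = 0.0643, edgeR, and 9.91e-07, DESeq2). *Slc18a2* and *Th* were the most abundant of the list. *Th*, the rate-limiting enzyme of dopamine synthesis, was at 54.6 ± 7.29 and 63.8 ± 5.98 CPM (adjusted *p* = 0.618). Kisspeptin neurons had no list of their own. Their genes *Kiss1* and *Tac2*, part of the ARC list and named after their values were seen, were higher in every mutant. *Kiss1* had means of 1.18 ± 0.659 and 5.4 ± 3.6 CPM (adjusted *p* = 0.258, edgeR, and 0.00485, DESeq2). *Tac2* had means of 114 ± 14 and 200 ± 70.2 CPM (adjusted *p* = 0.415, edgeR). The choroid plexus expresses *Prlr* strongly, and the summed level of 9 of its markers ran from 90.6 to 346 CPM in controls and from 120 to 490 CPM in mutants, so that the genotypes overlapped widely. By replicate, this sum was 294, 90.6 and 346 CPM in controls and 167, 490 and 120 CPM in mutants. The part of any of these lists or genes in the level of *Prlr* was not tested. Exons of *Prlr* share 155 of 15494 bases with the neighbouring gene *Agxt2*, which had between 1 and 8 counts per library.

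*Ghr*, the growth hormone receptor, occupies 3267760 to 3533492 of chromosome 15, minus strand. It was at 126, 122 and 109 CPM in controls and at 134, 103 and 119 CPM in mutants, and the genotypes overlapped. The log2 fold change was -0.0069 (95% interval -0.24 to 0.23, adjusted *p* = 0.994, edgeR). An interval of this width holds neither the -0.60 fitted for *Prlr* nor a rise of the same size, although the difference between the receptors was not tested.

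Transcripts of the ligands were scarce. *Prl*, which encodes prolactin, had 11, 0 and 67 counts in controls and 44, 2 and 0 in mutants, and *Gh*, which encodes growth hormone, had 0, 0 and 9 and then 0, 0 and 1. Both genotypes thus held libraries with and without *Prl*. Growth hormone and prolactin are made in the pituitary. The summed level of 8 pituitary markers was 6.11 CPM in control replicate 2 against 469 to 768 CPM in the other 5 libraries, most of it from *Cga* and *Tshb*. By replicate, this sum was 768, 6.11 and 505 CPM in controls and 594, 530 and 469 CPM in mutants. It did not track the *Prl* counts, which were 2 and 0 in mutant replicates 2 and 3. Without control replicate 2 the log2 fold change of *Prlr* was -0.54 (adjusted *p* = 0.0638), that of *Cish* 1.06 (adjusted *p* = 0.0638) and that of *Socs2* 0.90 (adjusted *p* = 0.0779, all edgeR). The part of pituitary tissue in these levels was not tested further.

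*Jak2*, the kinase bound to both receptors (chromosome 19, 29326318 to 29387570), ranged from 93.5 to 103 CPM over the controls and from 95.7 to 108 CPM over the mutants. Its log2 fold change was 0.085 (95% interval -0.10 to 0.27, adjusted *p* = 0.835, edgeR). The 3 STAT genes lie side by side on chromosome 11 within the stretch from 100642045 to 100800854. *Stat5b* ranged from 47.8 to 58.3 CPM and, in mutants, from 51.6 to 57.3 CPM. Its log2 fold change was 0.038 (95% interval -0.18 to 0.26). The paralog *Stat5a* was at 7.25 to 10.1 CPM and 7.54 to 9.57 CPM, and its log2 fold change was -0.067 (95% interval -0.48 to 0.34). Counts of *Stat5b* were 6.19 ± 0.397 times those of *Stat5a* in controls and 6.64 ± 0.589 times in mutants (SD, n = 3 each), with overlapping values. Of the distinct 50-base stretches in *Stat5a* transcripts, 15.2% also occur in another gene, nearly all of them in *Stat5b*, so part of the reads cannot be assigned to one of the pair. *Stat3* ranged from 145 to 186 CPM and, in mutants, from 161 to 193 CPM. Its log2 fold change was 0.011 (95% interval -0.24 to 0.26). The adjusted p-values of the STAT genes were between 0.952 and 0.993 with edgeR. The levels of the kinase and of the transcription factors thus overlapped between genotypes in all 4 genes. The tail ends of *Stat5a* and *Stat3* overlap by 72 exon bases on opposite strands, about 1.01% of the exons of *Stat5a*. The sources used here do not state that strand was used in counting.

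**Figure D2:**
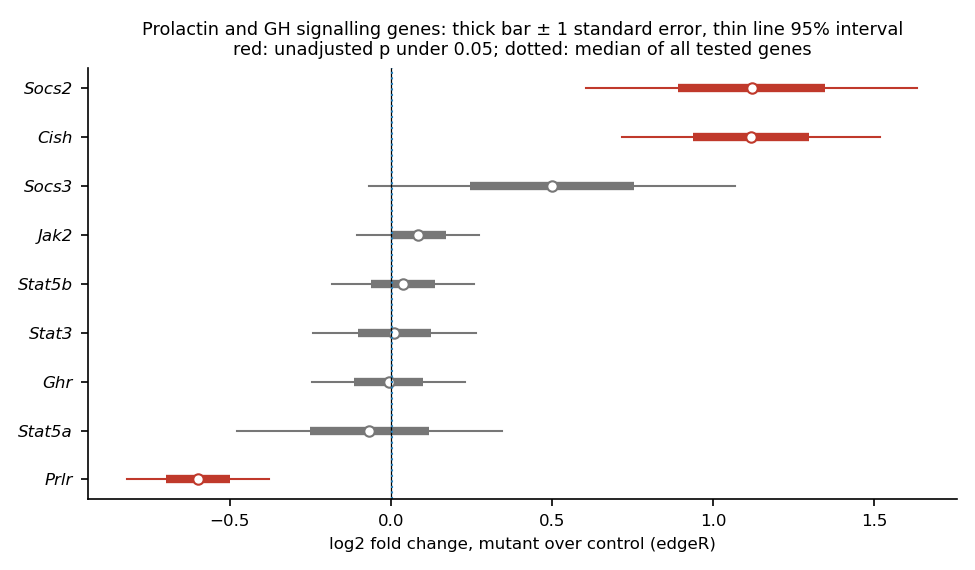
Log2 fold change of the 9 tested genes, mutant over control, from edgeR, with ± 1 standard error as thick bars and the 95% interval as thin lines. Red marks an unadjusted p-value under 0.05 (*Prlr*, *Cish* and *Socs2*), none of which passed after adjustment, and the dotted line is the median of all tested genes at 0.0036.

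*Cish* encodes CIS, the SH2 protein that binds phosphorylated cytokine receptors and blocks STAT5 docking. The gene occupies 107198357 to 107205115 of chromosome 9, plus strand, and its exons share 261 and 479 bases with the opposite-strand gene models *Gm17040* and *Gm17041*, which the count table does not list. It was at 5.03, 5.47 and 7.25 CPM in controls and at 14.1, 12.2 and 12.2 CPM in mutants, from 75 to 101 and 171 to 194 counts. The lowest mutant was 1.68 times the highest control. Means were 5.91 ± 1.18 CPM (SD, n = 3) and 12.8 ± 1.11 CPM (SD, n = 3), a fitted ratio of 2.17. On the log2 scale the difference had a standard error of 0.18 and a 95% interval from 0.72 to 1.52. Its adjusted p-value was 0.0567 with edgeR, 0.0571 with limma voom and 0.000285 with DESeq2, and it ranked 25 among the tested genes by unadjusted p-value. It had the smallest p-value of the 9 genes.

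*Socs2* encodes the suppressor of cytokine signalling that restrains the growth hormone receptor, and its gene occupies 94847996 to 94879814 of chromosome 10, minus strand. It was at 9.38, 6.86 and 13.8 CPM in controls and at 23.7, 19.7 and 21.7 CPM in mutants. All mutants were above all controls, the lowest of them 1.43 times the highest control. The means were 10.03 ± 3.54 CPM (SD, n = 3) and 21.7 ± 1.98 CPM (SD, n = 3), so the spread among controls was wider than for *Cish*. The fitted ratio was 2.17, as for *Cish*, and on the log2 scale the difference had a standard error of 0.23 and a 95% interval from 0.60 to 1.63. The adjusted p-value was 0.124 with edgeR, 0.0810 with limma voom and 0.000629 with DESeq2. Control replicate 3 was the highest control for both *Cish* and *Socs2*. Without it the log2 fold change of *Socs2* was 1.42 and the adjusted p-value 0.0438 (edgeR), and for *Cish* they were 1.29 and 0.0537. Of the distinct 50-base stretches in *Socs2* transcripts, 6.15% also occur in the gene model *Gm9847*.

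The levels of *Prlr* and of the STAT5-induced inhibitors differed in opposite directions between the genotypes. Per 100 counts of *Prlr* there were 1.23, 1.23 and 1.93 counts of *Cish* in controls and 4.80, 5.07 and 4.40 in mutants. For *Socs2* the same ratio was 2.30, 1.54 and 3.68 in controls and 8.05, 8.20 and 7.84 in mutants. These ratios need no scaling of the libraries. The genotypes were separate in both, which had to follow because *Prlr* was lower and both inhibitors were higher in every mutant. The ratio of *Cish* to *Socs2* counts, by contrast, was 0.618 ± 0.154 in controls and 0.592 ± 0.0285 in mutants (SD, n = 3 each), with overlapping values. The pairs were chosen after the values of the genes were known, so no test is given.

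*Socs3*, the inhibitor induced by STAT3 (chromosome 11, 117827393 to 117831361), was at 3.62, 2.21 and 3.51 CPM in controls and at 3.96, 4.52 and 4.66 CPM in mutants. The mutants were above the controls, but the lowest mutant was only 1.10 times the highest control. The log2 fold change was 0.50 with a standard error of 0.26 and a 95% interval from -0.068 to 1.07 (adjusted *p* = 0.608, edgeR, and 0.870, DESeq2). With 38 to 72 counts per library, a difference of this size was not distinguishable from the spread between libraries. *Socs1*, an inhibitor induced by interferons, had 4, 2 and 13 counts in controls and 4, 10 and 4 in mutants. Differences in *Socs1* were not detectable at this depth.

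Levels of different genes were compared per kilobase of exon. Exon lengths came from the GENCODE annotation of NCBIM37, which may differ from the gene models the authors counted on. They cover all annotated exons, and the order below depends on them. *Stat3* and *Ghr* had 9527 and 9053 exon bases, but their protein-coding transcripts held 6319 and 4919 distinct 50-base stretches. For *Jak2* these numbers were 5030 and 5028. In controls *Prlr* led with 26.4 ± 2.21 CPM per kb. *Jak2* at 19.5 and *Stat3* at 17.9 CPM per kb overlapped in their ranges, and *Ghr* at 13.2 and *Stat5b* at 9.54 CPM per kb followed, each separate from its neighbours. *Stat5a* at 1.21, *Socs3* at 1.08, *Socs2* at 1.05 and *Cish* at 0.921 CPM per kb overlapped each with the next, above *Socs1* at 0.360. The order differed in mutants. *Jak2* had the highest mean, at 20.7 ± 1.44 CPM per kb. Its lowest value, 19.02, was barely above the highest of *Prlr*, 18.98. *Prlr*, at 17.5 ± 1.76 CPM per kb, overlapped with *Stat3* at 18.0 ± 1.90, and *Cish* and *Socs2*, at 2.00 ± 0.173 and 2.28 ± 0.207 CPM per kb, lay above *Socs3* at 1.52 ± 0.129.

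The other genes of the JAK-STAT pathway were read from 7 lists of 71 genes in all, of which 56 were tested. None of the 56 passed with edgeR, and 7 had an unadjusted p-value under 0.05, 5 of them higher and 2 lower in mutants, against 4.84% and 4.01% of all genes. DESeq2 called 1, *Bcl6*. The median log2 fold change over the 56 genes was 0.075.

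Of 15 listed genes induced or repressed by STAT5 and STAT3, 10 were tested. Before adjustment 3 were higher and 1 lower in mutants at a p-value under 0.05, against 4.84% and 4.01% of all genes. The values of 6 of the 10 overlapped between genotypes. In every mutant 3 were higher and 1 was lower, against 7.88% of all genes in each direction. *Bcl6*, a transcriptional repressor whose own gene STAT5 is known to repress, was at 147, 147 and 97.4 CPM in controls and at 81.9, 82.6 and 85.5 CPM in mutants. Every mutant was lower than every control, and the fit gave -0.65 on the log2 scale (SE 0.15; adjusted *p* = 0.189, edgeR; 0.00393, DESeq2). *Ccnd1*, which encodes cyclin D1, had means of 51.7 ± 13.6 and 75.9 ± 5.46 CPM (log2 fold change 0.56, adjusted *p* = 0.370, edgeR). The others, named after their values were seen, were *Cebpd* and *Junb*, with log2 fold changes of 0.83 and 0.99 and adjusted p-values of 0.394 and 0.507 (edgeR). *Junb* also belongs to the immediate early genes. *Igf1*, the growth hormone target of the liver, also named afterwards, had a log2 fold change of 0.039 (adjusted *p* = 0.979, edgeR).

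Of 12 tested cytokine receptors besides *Prlr* and *Ghr*, 1 had an unadjusted p-value under 0.05. It was *Csf2rb*, the shared beta chain of the receptors for GM-CSF and interleukin 5, with means of 1.86 ± 0.433 and 3.69 ± 1.00 CPM (log2 fold change 0.98, adjusted *p* = 0.353, edgeR). *Il6st*, the signal chain shared by the interleukin-6 family, was the most abundant of them and had a log2 fold change of 0.057 (adjusted *p* = 0.889), and *Lifr*, the LIF receptor, one of 0.017 (adjusted *p* = 0.984). The CNTF receptor *Cntfr* had means of 69.7 ± 1.19 and 78.3 ± 2.73 CPM, with no overlap and a log2 fold change of 0.17 (adjusted *p* = 0.571, edgeR). Among the other kinases, *Jak1* had a log2 fold change of -0.045, *Tyk2* one of 0.26 and *Jak3* one of -0.22, with adjusted p-values of 0.922, 0.668 and 0.900.

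The 4 other STAT genes had log2 fold changes above 0, and 0 of the 4 had an unadjusted p-value under 0.05. *Stat2* and *Stat4* had log2 fold changes of 0.20 and 0.71, with adjusted p-values of 0.754 and 0.695. Of 13 inhibitors and phosphatases, 0 had an unadjusted p-value under 0.05. *Ptpn11*, which encodes SHP2, and *Pias1* were the most abundant and had log2 fold changes of -0.0071 and 0.0031 (adjusted *p* = 0.993 and 0.997), while *Ptpn6*, the SHP1 gene of blood cells, had one of 0.61 and *Pias2* one of -0.15 (adjusted *p* = 0.578 and 0.654). Of 12 adaptors, the docking protein gene *Gab1* (log2 fold change 0.33, adjusted *p* = 0.352) and the Ras exchange factor gene *Sos1* (-0.22, adjusted *p* = 0.402) had an unadjusted p-value under 0.05, and *Pik3r1*, a regulatory subunit of PI3K, had a log2 fold change of 0.10 (adjusted *p* = 0.805). Of the remaining ligands only *Lif* was tested, with a log2 fold change of 0.33 (adjusted *p* = 0.883, all edgeR).

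**Figure D3:**
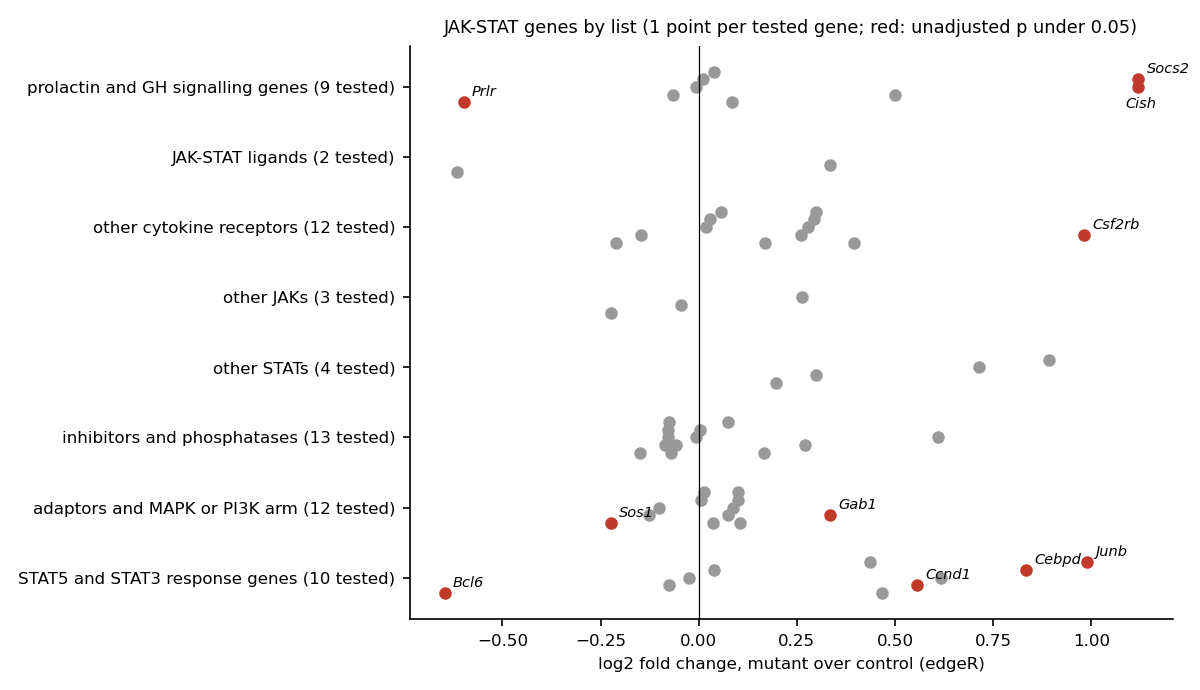
Log2 fold change, mutant over control, of each tested gene by list, with 1 point per gene and red for an unadjusted p-value under 0.05. *Prlr*, *Bcl6* and the scarce *Prl* stand at the left and *Cish*, *Socs2*, *Junb*, *Csf2rb* and *Cebpd* at the right, while most inhibitors and adaptors lie near 0.

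Markers of other cells differed with genotype in the same libraries as *Prlr*, *Cish* and *Socs2*. The summed level of 10 oligodendrocyte markers was 697 to 1317 CPM in controls and 1716 to 1863 CPM in mutants, and each of the 10 was higher in every mutant, 1 of them past the threshold with edgeR. That of 10 microglia markers was 266 to 272 CPM and 334 to 355 CPM, with 6 of 10 genes higher in every mutant. The 12 interferon response genes summed to 139 to 177 CPM in controls and 184 to 367 CPM in mutants. The 10 tanycyte and ependymal markers summed to 1448 to 1834 CPM and 1865 to 2023 CPM, with 2 of 10 genes higher in every mutant. *Dio2*, 1 of these 2, had means of 339 ± 74.4 and 580 ± 90.4 CPM. *Nnat*, the most abundant of the list, overlapped, with means of 492 ± 47.0 and 454 ± 80.1 CPM. Immediate early genes overlapped, at 189 to 401 CPM and 369 to 570 CPM, although 6 of 11 genes were higher in every mutant, 1 of them, *Dusp1*, past the threshold with edgeR (adjusted *p* = 0.0313). Ventromedial nucleus markers (95.2 to 210 and 113 to 320 CPM), astrocyte markers (3688 to 6416 and 3986 to 5860 CPM), endothelial markers (106 to 141 and 131 to 151 CPM), blood cell markers (7.62 to 11.1 and 10.5 to 16.2 CPM, with the 4 hemoglobin genes at 0) and the 10 ARC neuron markers (1660 to 1808 and 1607 to 2029 CPM) overlapped as well. No other list had a marker at 0 in all libraries. Among the most abundant genes of the 4 lists that did not overlap were *Mbp*, *Csf1r*, *Ifi27*, *Nnat* and *Dio2*, although *Nnat* itself overlapped. Of all tested genes, 7.88% were higher in every mutant. The part of these lists in the levels of *Prlr*, *Cish* and *Socs2* was not tested.

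**Figure D4:**
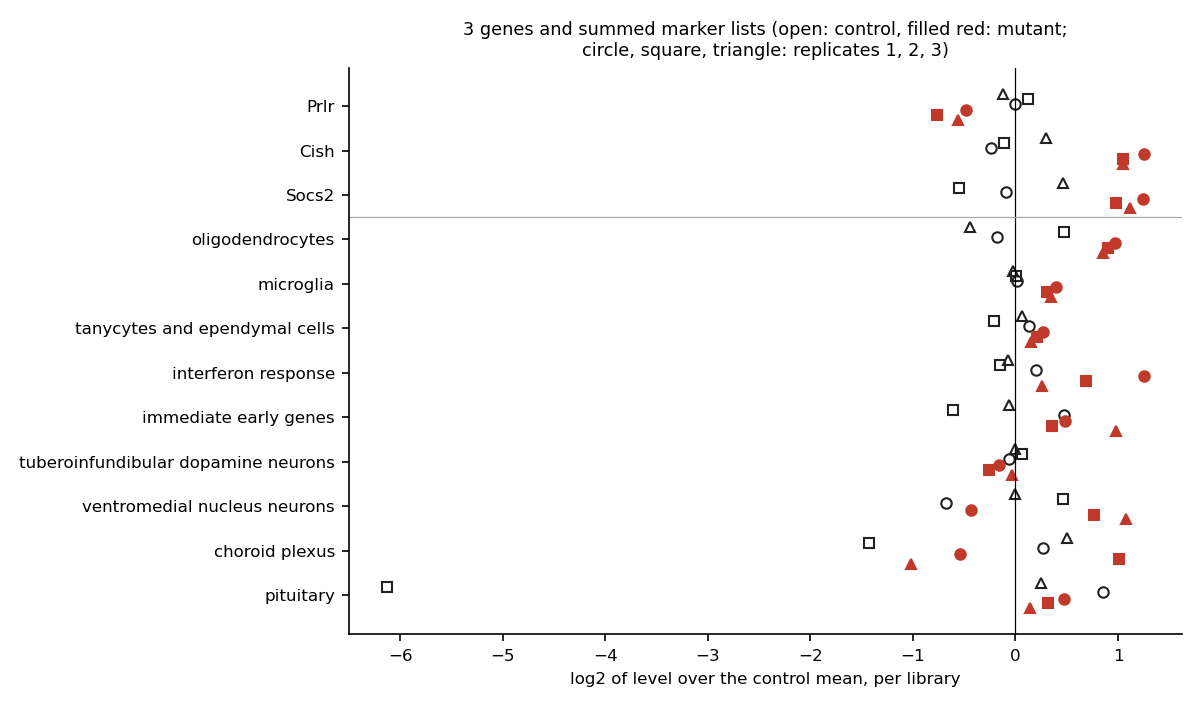
Level in each library over the control mean, on a log2 axis, for *Prlr*, *Cish* and *Socs2* (above the line) and for the summed level of 9 marker lists (below it), with controls open and mutants filled red. The genotypes are separate for the 3 genes and for the oligodendrocyte, microglia, tanycyte and interferon lists, and the pituitary list is low in control replicate 2 alone.

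The sizes of the *Prlr*, *Cish* and *Socs2* differences kept their direction under every setting that was tried, while their adjusted p-values lay on both sides of the threshold. Over the 13 alternatives, log2 fold changes ran from -0.66 to -0.52 for *Prlr*, from 1.01 to 1.29 for *Cish* and from 0.90 to 1.42 for *Socs2*. Adjusted p-values ran from 2.79e-05 to 0.260 for *Prlr*, from 0.000285 to 0.216 for *Cish* and from 0.000629 to 0.351 for *Socs2*, and each gene had its lowest value with DESeq2. When every gene with at least 1 count in any sample was kept, edgeR gave 0.00400, 0.00501 and 0.0242, and with this filter it called 0.471% of all genes. A fit with the replicate number as a block called 0.807% of all genes, the 3 among them.

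**Figure D5:**
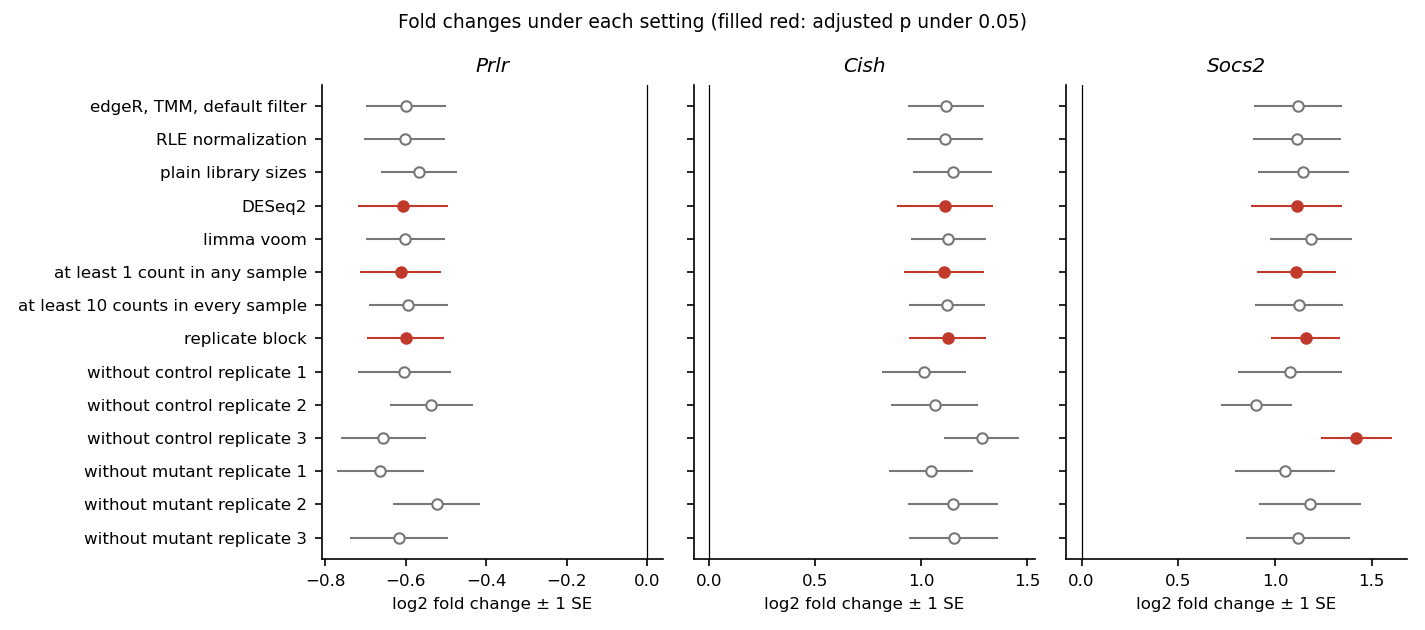
Log2 fold change ± 1 standard error of *Prlr*, *Cish* and *Socs2* under each setting, with filled red points for an adjusted p-value under 0.05. All points of *Prlr* lie below 0 and all points of *Cish* and *Socs2* above it, and the red points are those of DESeq2, of the lower count filter, of the replicate block and, for *Socs2*, of the fit without control replicate 3.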

How the data were processed

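The counts are as the authors deposited them, 1 whole number of reads per gene symbol and library, without normalization. Per the labels, libraries were made from 50 ng of total RNA, and the authors mapped reads with TopHat2 2.1.0 to mm9 and counted them with HTSeq 0.6. Their methods name the build NCBI37/mm10 and DESeq2 as the test. Positions and exon lengths were matched by symbol in the GENCODE annotation of NCBIM37 (mm9), and promoter sequences came from RefSeq on GRCm38.p6.

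Genotypes and replicate numbers came from the labels. All genes were tested with edgeR 4.0.16 in R 4.3.3 (quasi-likelihood test, robust dispersions, TMM, default filter on low counts), with p-values adjusted by the Benjamini-Hochberg method over 15236 genes. DESeq2 1.42.0, limma voom (limma 3.58.1), other filters and scalings, a replicate block and leaving out each sample were alternatives. Levels are CPM over TMM-scaled library sizes, and standard errors were derived from the quasi-likelihood F statistic. The scripts were tested on simulated data. Counts of all 15 pairs of libraries differed by more than sampling noise (chi-square of at least 6.60 per degree of freedom). The reads carried no molecular identifiers, so floors cover counting error only. The labels do not say that replicates were separate animals, although the authors' figure legend gives n = 3 females of each genotype. The p-values measure the spread between these samples, part of which may be technical.

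The genes and lists were chosen with earlier results of these data known. The genes named are the 10 signalling genes, *Esr1*, the ligands, the 2 most abundant and the 2 with the smallest p-values of each pathway list, the 2 most abundant of marker lists that moved, and the 5 genes nearest in pattern to *Prlr* and to *Cish*. A few genes that this rule names are not reported here.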

Additional observations from a re-analysis of the deposited data

How the results depend on the processing

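The number of the 9 tested genes called was 0 with edgeR and 3 with DESeq2, with a minimum of 1 count in any sample and with the replicate block, in each case 2 higher and 1 lower. It ran from 0 to 1 when each sample was left out, the 1 being *Socs2* without control replicate 3. Over all genes, 18 were called with edgeR, 191 with DESeq2, 106 with the minimum of 1 count in any sample, 123 with the replicate block and from 7 to 46 with a sample left out (7 without mutant replicate 3, 9 without mutant replicate 2, 46 without control replicate 2). Of the pathway lists, 0 genes were called with edgeR, 1 with DESeq2 and from 0 to 1 with a sample left out, *Bcl6* each time (log2 fold change -0.82, adjusted *p* = 0.0128 without control replicate 3). The cause was not tested.

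*Prlr*, *Cish* and *Socs2* passed with log2 fold changes of -0.61, 1.11 and 1.11 under DESeq2, -0.61, 1.11 and 1.11 with the minimum of 1 count, and -0.60, 1.13 and 1.16 with the replicate block (adjusted *p* = 0.0337, 0.0310 and 0.0301). *Socs2* ran from 0.90 to 1.42 with a sample left out. The sign turned only in genes near 0: *Ghr* (0.024 with plain library sizes, -0.10 to 0.085 with a sample left out), *Stat3* (-0.0031 with the minimum of 1 count, -0.095 to 0.076), *Stat5a* (-0.19 to 0.058) and *Stat5b* (-0.030 to 0.11). The summed marker lists kept their direction and moved by less than the spread between replicates with plain library sizes.

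The replicate numbers were shared by the genotypes, but deviations of same-numbered libraries were correlated across genes with r of 0.27, 0.045 and -0.016, and control replicate 2 was closer to mutant replicate 3 (0.20), so the numbers were not taken to pair the females. Depth limits *Socs1* and the ligands, and for *Socs3* the 95% interval spans -0.068 to 1.07.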

Other observations

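The tested genes nearest to *Prlr* in pattern, by the root-mean-square distance between centred log2 CPM over the 6 libraries, were *Grin2d* (0.034), *Npy1r* (0.079), *Map3k15* (0.081), *Banp* (0.082) and *Doc2g* (0.086). *Npy1r*, the Y1 receptor for neuropeptide Y, was at 83.5, 96.3 and 77.3 CPM in controls and at 69.6, 53.5 and 56.3 CPM in mutants. Its log2 fold change was -0.52 with a standard error of 0.12 (adjusted *p* = 0.169, edgeR, and 0.0175, DESeq2). *Grin2d*, an NMDA receptor subunit, had a log2 fold change of -0.57 (adjusted *p* = 0.323, edgeR, and 0.354, DESeq2). All 5 were lower in every mutant, as were 7.88% of all genes. This followed from their choice by nearness to *Prlr* and is no separate result. None passed with edgeR.

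Nearest to *Cish* were *Mx2* (distance 0.14), *Gnb1l* (0.14), *Pdyn* (0.14), *Klhl6* (0.16) and *Artn* (0.17). All were higher in every mutant, as were 7.88% of all genes. This followed from their choice by nearness to *Cish* and is no separate result. None passed the threshold with edgeR. *Pdyn*, the prodynorphin gene of kisspeptin neurons, was at 42.4, 56.4 and 64.6 CPM in controls and at 139, 101 and 94.3 CPM in mutants. Its log2 fold change was 1.03 with a standard error of 0.19 (adjusted *p* = 0.114, edgeR, and 3.92e-06, DESeq2). *Mx2* is induced by interferon and had means of 1.57 and 3.23 CPM. *Socs2* ranked 12 in distance from *Cish* (0.20) among 15235 other tested genes. The distances describe these 6 libraries and carry no test.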
